A study of Mus musculus with 8 samples.

Results

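The genes described are 7 members of the SLC16 family of monocarboxylate transporters (Slc16a1, Slc16a3, Slc16a6, Slc16a7, Slc16a9, Slc16a10 and Slc16a13) and the chaperone genes Bsg and Emb. They were listed by name for their function, with earlier results of these data known, and are 9 of 55487 gene identifiers in the deposited tables. Their transcripts were measured by RNA sequencing in epididymal white adipose tissue, the fat pad beside the epididymis, of 8 male C57BL/6 mice made obese by a high-fat diet (HFD). The 4 WT mice (numbers 2, 3, 4 and 5) were Slc16a1 flox/flox and the 4 AKO mice (numbers 3, 8, 9 and 11) carried the same floxed alleles with AP2-cre. Both groups therefore share the floxed alleles, the strain and the diet, and differ in the transgene. The labels give the AKO genotype as Slc16a1 -/-, and no age. AP2 is the promoter of the fatty acid binding protein gene Fabp4, which is active in fat cells and is known to act also in some macrophages and endothelial cells. The pad was frozen whole, so its other cell types are in every library.

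Carriers of this family move short organic acids and related molecules across membranes. Slc16a1 encodes MCT1, Slc16a7 MCT2 and Slc16a3 MCT4, which carry lactate, pyruvate and ketone bodies together with a proton. These carriers reach the cell surface in complex with a single-span glycoprotein such as basigin (Bsg) or embigin (Emb). Fat cells make and release much lactate, and obese fat is known to release more of it. Other members have other cargoes: Slc16a10 encodes TAT1, a carrier of aromatic amino acids, and Slc16a6 encodes MCT7, known as an exporter of ketone bodies from liver cells. Slc16a9 and Slc16a13 encode MCT9 and MCT13, which are less well characterised.

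Values are TPM, the transcript abundance per length scaled to a fixed library total, so levels can be compared between genes. Read depth cannot be recovered from TPM and is unknown here. A gene has 1 row per transcript in the deposited tables, and its level is the sum of its rows. Rows carry no transcript name and are numbered here in file order. Genes at 1 TPM or more numbered 13968 to 14884 per library. The 8 adipocyte markers, among them Adipoq, Plin1 and Lipe, were present in all libraries, with a summed level of 10232 to 19586 TPM in WT and 9763 to 14410 TPM in AKO. WT mouse 4 had the highest adipocyte sum and the lowest macrophage sum. A difference is the AKO mean less the WT mean of log2(TPM + 1), a scale that understates the change of low genes, and comes from limma fitted to the 14172 genes that reached 1 TPM in 4 or more libraries. The threshold is a false discovery rate (FDR) below 0.05 over all of these genes. The labels say that the mice are separate animals, and p-values cover the spread between them.

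The promoters of the lactate carriers Slc16a1 and Slc16a3 are shown because these genes do like work at different levels, and because Slc16a1 is the floxed gene. RefSeq lists 1 transcript of Slc16a1 on GRCm38.p6 and 5 of Slc16a3. Each sequence runs from 250 bases before to 50 bases after a RefSeq start, on the plus strand, at chr3:104638414-104638713 for Slc16a1 and chr11:120948817-120949116 for Slc16a3. Capitals mark ACGTG, a form of the core letters of the sites of hypoxia-inducible factors, and TATAA, the letters of a TATA box. Both were searched on either strand, and other forms of that core were not searched.
Slc16a1: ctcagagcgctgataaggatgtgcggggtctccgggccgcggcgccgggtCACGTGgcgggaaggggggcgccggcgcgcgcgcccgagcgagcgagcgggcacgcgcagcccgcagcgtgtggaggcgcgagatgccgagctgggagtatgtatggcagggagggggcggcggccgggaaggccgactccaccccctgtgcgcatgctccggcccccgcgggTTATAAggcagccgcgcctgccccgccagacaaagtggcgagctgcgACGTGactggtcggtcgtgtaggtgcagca
Slc16a3: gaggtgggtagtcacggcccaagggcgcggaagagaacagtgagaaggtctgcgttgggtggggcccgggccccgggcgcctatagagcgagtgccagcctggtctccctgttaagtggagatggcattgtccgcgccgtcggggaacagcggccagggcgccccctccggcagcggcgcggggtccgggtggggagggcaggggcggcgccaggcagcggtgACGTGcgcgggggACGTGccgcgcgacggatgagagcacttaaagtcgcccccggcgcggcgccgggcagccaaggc
In Slc16a1 the first run of capitals is CACGTG, the E-box letters known for MYC and related factors, which holds ACGTG on both strands. The CACGTG motif stands in 7.15% of all 32851 promoters in the table, TATAA in 24.9% and ACGTG in 19.6%. Slc16a1 holds 3 matches to ACGTG and Slc16a3 holds 2, and the Slc16a3 window has no TATAA. A promoter was in the table for 5 of the 9 members. The windows of Slc16a9, Slc16a10 and Emb hold none of the 3 motifs. These matches describe letters only.

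Bsg stood far above every carrier. Its level over the 8 mice was 510.7 ± 25.8 TPM (SD, n = 8), against 77.1 ± 9.25 TPM (SD, n = 8) for the 7 carriers summed. Next came the amino acid carrier Slc16a10 at 23.6 ± 3.97 TPM (SD, n = 8) and Slc16a1 at 22.6 ± 4.38 TPM (SD, n = 8). Emb followed at 17.4 ± 5.05 TPM and Slc16a7 at 14.7 ± 3.88 TPM (SD, n = 8). Among these 4, genes next to each other in the order did not differ in level beyond the spread of their differences within mice. Slc16a10 exceeded Slc16a1 in 6 of 8 mice, by 0.938 ± 3.02 TPM (SD, n = 8). The step from Slc16a7 to the next gene was larger than its spread, at 9.62 ± 5.74 TPM in 8 of 8 mice. The low members were Slc16a13 (5.08 ± 2.33 TPM), Slc16a6 (5.06 ± 1.42 TPM), Slc16a3 (3.66 ± 0.786 TPM) and Slc16a9 (2.43 ± 0.313 TPM; SD, n = 8 for each). Slc16a13 and Slc16a6 did not differ beyond their spread. Slc16a3, the MCT4 gene, was thus below the MCT1 gene in every mouse, by a ratio of 4.96 to 10.47.

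**Figure D1:**
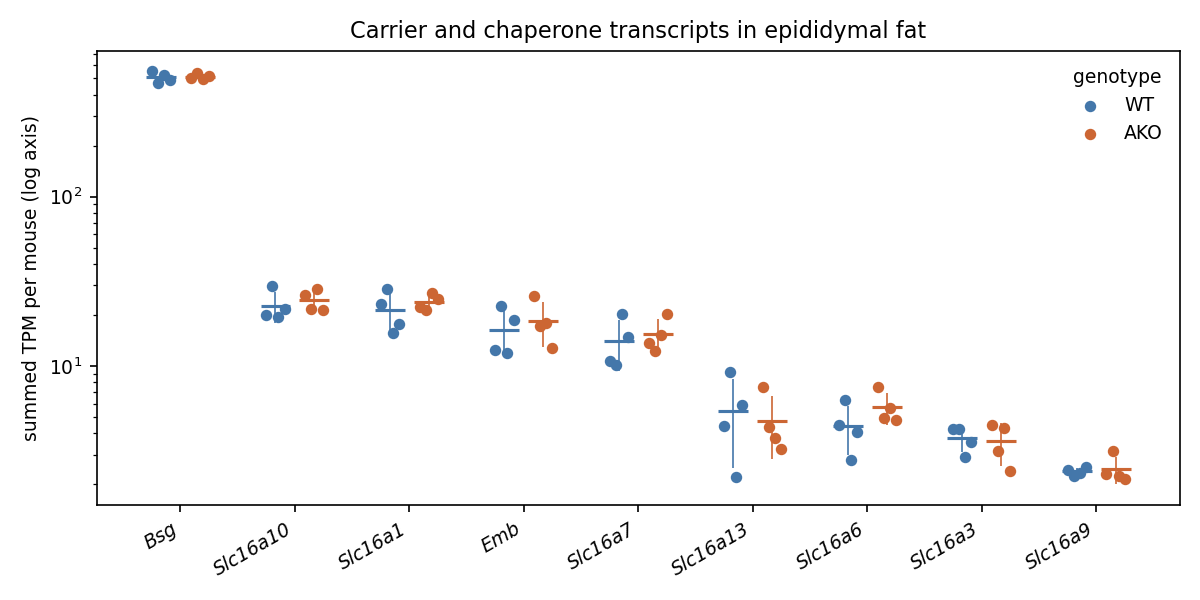
Summed TPM of each gene in each mouse on a log axis, ordered by mean level, WT in blue and AKO in orange. Points are mice, horizontal lines are group means and vertical lines SD over 4 mice, and the groups overlap for each of the 9 genes.

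Ranks were taken among the 7 listed carriers, not the whole family. Slc16a12, outside the list, had a mean of 14.7 TPM, as high as Slc16a7, and was not ranked. Within the list the upper places varied little between mice. Slc16a10 had rank 1 in 5 mice and rank 2 in 3, and Slc16a1 had rank 1 in WT mouse 2 and AKO mouse 11, rank 2 in 5 mice and at rank 3 in WT mouse 4. Slc16a7 had rank 3 in 7 mice and first in WT mouse 4. Slc16a9 had rank 7, the lowest, in 6 mice. The places between were less steady: Slc16a13 ran from rank 4 in WT mice 3 and 5 and AKO mouse 3 to rank 7 in WT mouse 4, Slc16a3 from rank 4 in WT mouse 4 to rank 7 in AKO mouse 8, and Slc16a6 had rank 4 or 5. The 3 upper carriers held 74.1% to 84.4% of the summed TPM of the 7 listed carriers. The share of Slc16a1 in that sum was 28.5% ± 4.67 in WT and 29.9% ± 2.28 in AKO (SD, n = 4 each, exact permutation p = 0.657), and the 4 AKO shares lay inside the WT range.

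**Figure D2:**
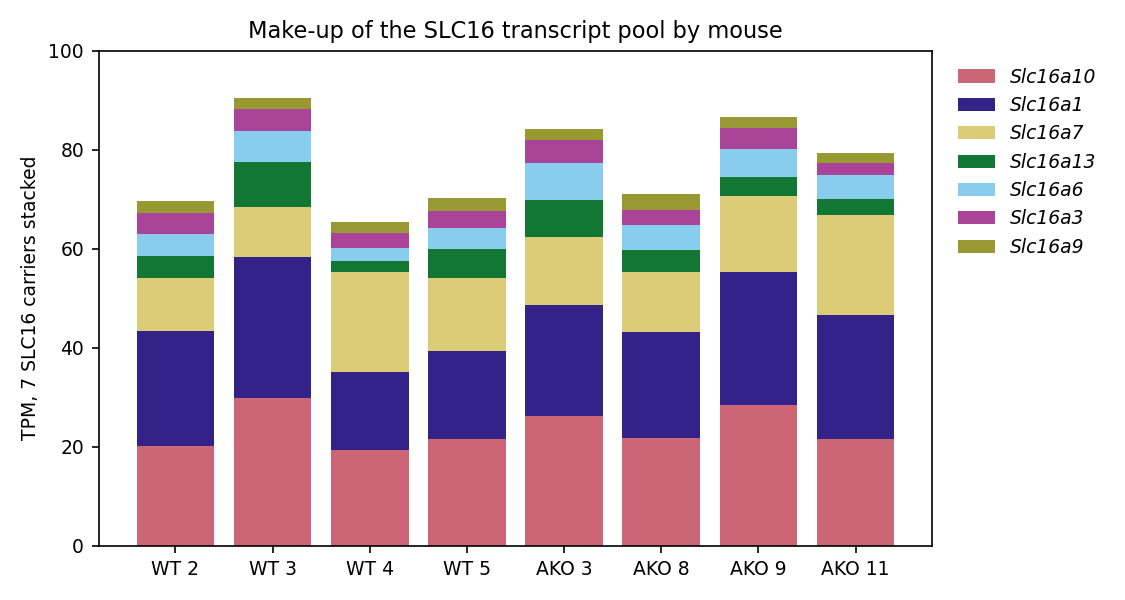
TPM of the 7 carriers stacked for each mouse, ordered from the highest mean at the bottom. The total lies between 65.5 TPM in WT mouse 4 and 90.4 TPM in WT mouse 3, and Slc16a7 is widest in WT mouse 4 and AKO mouse 11.

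None of the 9 members passed the threshold between AKO and WT. By limma 0 of 9 had an FDR below 0.05, where 4 of 14172 genes did (0.0282%), and 0 of 9 had an unadjusted p below 0.05, where 4.75% of all genes did. All 9 passed the filter on low values and were above 1 TPM in every mouse. The log2 difference was positive for 7 members (for 6 after median-ratio scaling of the libraries, where Bsg had -0.0018), and their median was 0.11, beside a median of 0.02 over all genes tested. In none of the 9 were the groups apart, against 2.44% of all genes. With each of 16 other settings there were 0 calls among the members as well, with FDR values of 0.332 or more.

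**Figure D3:**
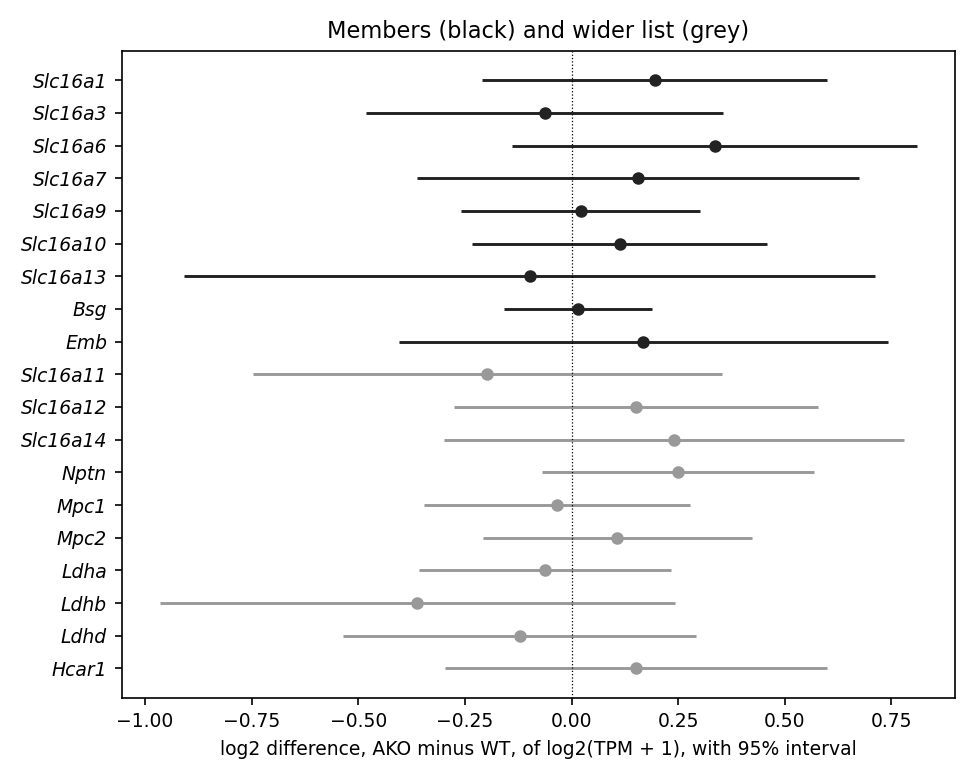
Log2 difference (AKO minus WT, on log2(TPM + 1)) with its 95% interval from limma for the 9 members in black and the 10 tested genes of the wider list in grey. Each interval covers 0, and the interval of Bsg is the narrowest among the members.

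Slc16a1 (ENSMUSG00000032902, chromosome 3 in GENCODE M21), the floxed gene, had no lower total in AKO. WT mice 2, 3, 4 and 5 had 23.4, 28.5, 15.7 and 17.7 TPM. AKO mice 3, 8, 9 and 11 had 22.4, 21.5, 27.1 and 25.03 TPM. The AKO values lay inside the WT range, with WT mice 4 and 5 lowest. The log2 difference was 0.19, with a 95% interval from -0.21 to 0.60 (limma FDR = 0.850 over all genes). This fit takes the totals of WT mice 4 and 5 as listed, with 1 of the gene's 2 rows at 0 in both. The interval alone therefore does not leave out a larger fall. Without WT mice 4 and 5 the difference was -0.11, with an interval from -0.43 to 0.22. The total therefore does not check the labels, and WT and AKO stand for the libraries so labelled throughout.

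The gene has 2 rows in the tables, and its division between them separated the groups. Row 1 had 10.8, 14.0, 15.7 and 17.7 TPM in WT mice 2, 3, 4 and 5 and 8.80, 7.71, 4.51 and 5.43 TPM in AKO mice 3, 8, 9 and 11. Row 2 had 12.5, 14.4, 0 and 0 TPM in the WT mice and 13.6, 13.8, 22.5 and 19.6 TPM in the AKO mice, in the same order. As a share of the gene, row 1 held 46.4%, 49.3%, 100% and 100% in WT. In AKO it held 39.3%, 35.9%, 16.7% and 21.7%. Each AKO share was below each WT share. The mean share fell by 45.5 percentage points, from 73.9% ± 30.1 to 28.4% ± 10.9 (SD, n = 4 each, two-sided exact permutation p = 0.0286, the smallest that 70 arrangements give). This p was not adjusted for the 8 members whose row share was tested. Among 12279 genes with several rows, the share of row 1 was lower in every AKO mouse than in every WT mouse for 1.41%. That figure counts 1 direction only, while the test is two-sided. For the share of the highest row, the groups were apart in either direction for 2.94% of these genes.

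The size of this shift rests on WT mice 4 and 5. Without them the mean share fell by 19.5 percentage points (exact permutation p = 0.133, where 15 arrangements allow no less than 0.0667). Without AKO mouse 3, 8, 9 or 11 the difference was -49.2, -48.03, -41.6 or -43.3 percentage points, and the exact permutation p was 0.0857 each time. Without WT mouse 2, 3, 4 or 5 it was -54.7, -53.7, -36.8 or -36.8 percentage points, with an exact permutation p of 0.0286 each time. In the limma fit of 33323 single rows, row 1 had a log2 difference of -1.05 (95% interval -1.54 to -0.56, unadjusted p = 0.000999, FDR = 0.598). Row 2 had 2.24 (0.09 to 4.39, FDR = 0.838), and 0.32 without WT mice 4 and 5. A 0 in the tables may mean that the transcript is absent or that its estimate failed. Of 19874 rows that reached 5 TPM in some mouse, 9.17% were listed at 0 in another. The pattern of row 2, with 2 WT mice at 5 TPM or more and the other 2 at 0, was found in 71 rows of the table. GENCODE M21 lists 1 transcript for the gene, so which part of the gene a row covers was not tested.

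**Figure D4:**
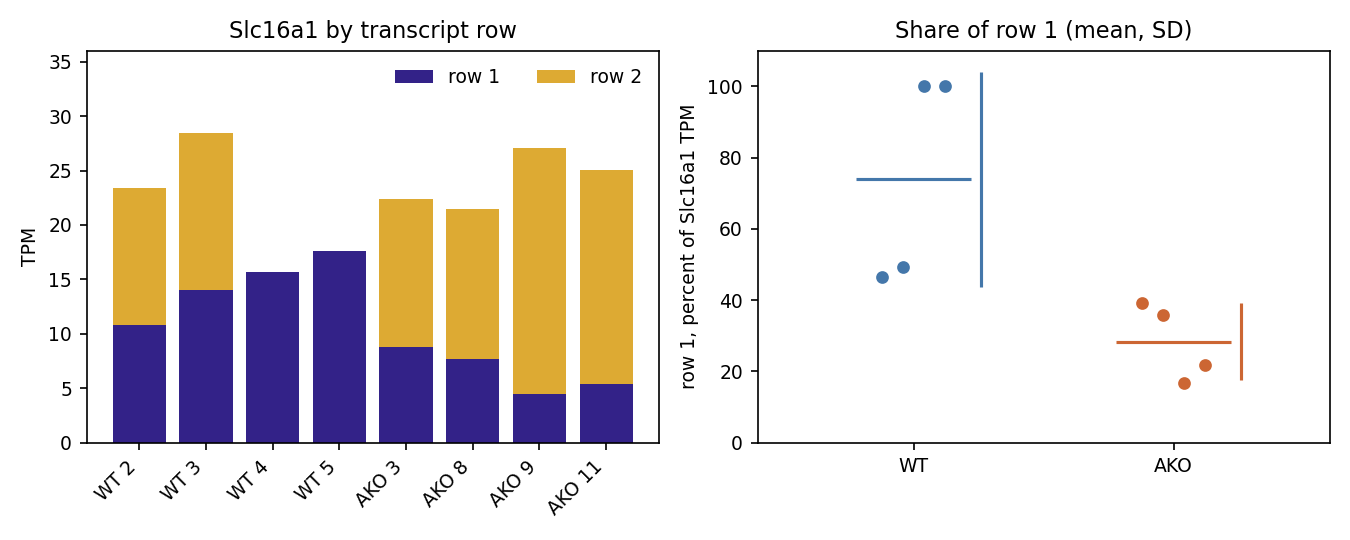
Left, TPM of Slc16a1 row 1 and row 2 stacked for each mouse; right, the percent of Slc16a1 TPM in row 1 with group mean and SD (n = 4). Row 1 is alone in WT mice 4 and 5, near an even division in WT mice 2 and 3, and between 16.7% and 39.3% in AKO.

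Slc16a7 and Slc16a3, the other lactate carriers, did not pass the threshold, and their groups overlapped. Slc16a7 (ENSMUSG00000020102, chromosome 10) had 10.7, 10.1, 20.2 and 14.9 TPM in WT mice 2, 3, 4 and 5 and 13.7, 12.3, 15.3 and 20.3 TPM in AKO mice 3, 8, 9 and 11. WT mouse 4 and AKO mouse 11 were the high mice, 1 in each group. The log2 difference was 0.16 (95% interval -0.36 to 0.67, limma FDR = 0.908). Row 2 held the largest part of this gene on average, 33.6% to 52.0%, and varied less between mice than row 3. Row 3 ranged from 0 in WT mouse 2 and AKO mouse 8 to 5.39 TPM in WT mouse 4 and 7.51 TPM in AKO mouse 11, the same 2 mice in which the total was high. The ratio of Slc16a1 to Slc16a7 lay below 1 in WT mouse 4 alone, at 0.779, and reached 2.81 in WT mouse 3. It was 1.74 ± 0.924 in WT and 1.595 ± 0.249 in AKO (SD, n = 4 each, exact permutation p = 0.800).

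Slc16a3 (ENSMUSG00000025161, chromosome 11) had 4.23, 4.27, 2.90 and 3.54 TPM in WT and 4.51, 3.13, 4.31 and 2.39 TPM in AKO, in the same order of mice. AKO held both the highest and the lowest mouse. The log2 difference was -0.06 (95% interval -0.48 to 0.36, limma FDR = 0.947). Its 8 rows included 2 that were at 0 in every mouse, and row 1 held 40.0% to 64.9% of the gene.

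Among the other carriers, Slc16a6 had the largest log2 difference of the summed values, 0.34, and it did not pass (95% interval -0.14 to 0.81, limma FDR = 0.831). Slc16a6 (ENSMUSG00000041920, chromosome 11) had 4.46, 6.26, 2.79 and 4.09 TPM in WT mice 2, 3, 4 and 5 and 7.47, 4.96, 5.63 and 4.79 TPM in AKO mice 3, 8, 9 and 11. Each AKO mouse was above 3 of the 4 WT mice, and WT mouse 3 was above 3 of the AKO mice. Rows 2 and 3 carried the gene, with 2.09 to 4.24 and 0.70 to 2.88 TPM. In GENCODE M21 its exons overlap those of Amz2 and Arsg, and 25.03% of its longest transcript is shared with Amz2 at 95% identity, so its level is uncertain.

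Slc16a10 (ENSMUSG00000019838, chromosome 10) had 20.1, 29.8, 19.4 and 21.6 TPM in WT and 26.3, 21.7, 28.3 and 21.5 TPM in AKO, in the same order of mice. WT mouse 3 was the highest of the 8 mice and WT mice 4 and 2 were the lowest. The log2 difference was 0.11 (95% interval -0.23 to 0.46, limma FDR = 0.899). The division of its 4 rows was steady, with row 1 at 84.1% to 87.1% in each mouse.

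Slc16a13 (ENSMUSG00000044367, chromosome 11) was the most variable member. It had 4.43, 9.22, 2.20 and 5.85 TPM in WT and 7.52, 4.38, 3.77 and 3.24 TPM in AKO, a log2 difference of -0.10 (95% interval -0.91 to 0.71, limma FDR = 0.958). The range of WT held every AKO mouse. Its first row varied little, between 2.13 and 3.47 TPM, while row 2 ran from 0 in AKO mouse 9 to 4.29 TPM in WT mouse 3. The share of row 1 was therefore as low as 29.8% in WT mouse 3 and as high as 96.8% in WT mouse 4. Taken alone, row 1 had a log2 difference of 0.23 (limma FDR = 0.843 over all rows) and row 2 of -0.85 (FDR = 0.839), of opposite sign. The WT and AKO means were 2.51 and 3.09 TPM for row 1 and 2.285 and 0.658 TPM for row 2. In TPM these 2 rows did not cancel, and the interval of the sum is wide.

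Slc16a9 (ENSMUSG00000037762, chromosome 10) was the lowest and one of the steadiest members. It had 2.43, 2.25, 2.34 and 2.54 TPM in WT and 2.31, 3.14, 2.23 and 2.16 TPM in AKO. AKO mouse 8 stood above the other 7 mice. The log2 difference was 0.02 (95% interval -0.26 to 0.30, limma FDR = 0.9751), and 1 of its 2 rows was at 0 in every mouse. In M21, 24.4% of its longest transcript is shared with the predicted genes Gm7097 and Gm9877 on the opposite strand.

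Neither chaperone passed the threshold. Bsg (ENSMUSG00000023175, chromosome 10) had 550.0, 469.2, 524.1 and 490.3 TPM in WT mice 2, 3, 4 and 5 and 503.8, 535.2, 499.2 and 513.6 TPM in AKO mice 3, 8, 9 and 11. The AKO mice lay inside the WT range. Its log2 difference was 0.01, and the 95% interval from -0.16 to 0.19 was the narrowest of the members (limma FDR = 0.973). Row 5 held 99.4% to 99.8% of the gene. Per TPM of the 7 carriers summed there were 5.19 to 8.01 TPM of Bsg in WT and 5.76 to 7.54 in AKO.

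Emb (ENSMUSG00000021728, chromosome 13), the chaperone that pairs best with MCT2, had 12.4, 22.5, 11.99 and 18.7 TPM in WT and 25.98, 17.2, 18.0 and 12.8 TPM in AKO, in the same order of mice. High and low mice were found in both groups, with AKO mouse 3 and WT mouse 3 highest. Its log2 difference was 0.17 (95% interval -0.40 to 0.74, limma FDR = 0.908). Row 1 held 96.6% to 99.7% of the gene. Bsg exceeded Emb by a ratio of 20.8 to 44.5 in WT and 19.4 to 40.3 in AKO. The predicted gene Gm17509 overlaps Emb on the opposite strand in M21 and shares 23.5% of its longest transcript. Exons of Slc16a7 likewise overlap those of Gm47862 on the opposite strand. The labels do not state strand-specific counting.

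Over single rows, the members had 45 rows, of which 41 were above 0 in some mouse and 20 passed the filter on low values. By limma 0 of these 20 had an FDR below 0.05, where 0.021% of 33323 rows did. An unadjusted p below 0.05 was found for 2 of them, both rows of Slc16a1, where 5.56% of all rows had one. The groups were apart for 1 member row, Slc16a1 row 1, against 3.05% of all rows. Among 8 members with more than 1 row above 0, 1, Slc16a1, had a share of its highest row (row 2) that separated the groups, where 2.94% of genes with several rows did. The next smallest p was that of Bsg row 5, with 99.5% ± 0.0977 in WT and 99.7% ± 0.0820 in AKO (SD, n = 4 each, exact permutation p = 0.0571). For 7 members the number of rows equals that of the transcripts in M21, and Slc16a1 and Slc16a7 have more rows than transcripts there.

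A wider list held 15 other genes of monocarboxylate transport and lactate handling: further carriers of the family, the sodium-coupled carriers Slc5a8 and Slc5a12, neuroplastin (Nptn, a relative of basigin), the mitochondrial pyruvate carrier subunits Mpc1 and Mpc2, lactate dehydrogenases and the lactate receptor gene Hcar1. By limma 0 of 10 tested genes passed in either direction, and 0 had an unadjusted p below 0.05. The difference was positive for 5 and negative for 5, with a median of 0.04. Slc16a12, a carrier of creatine, had 14.0 ± 3.68 TPM in WT and 15.3 ± 2.08 in AKO (SD, n = 4 each), as high as Slc16a7. Slc16a11 had 2.14 ± 0.741 and 1.76 ± 0.776 TPM. Slc16a14 was near 1 TPM, at 0.883 ± 0.473 and 1.23 ± 0.562. Slc16a4, Slc16a5, Slc16a8 and Slc5a8 stayed below 1 TPM on average, and Slc5a12 was listed at 0 in every mouse.

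Ldha, Nptn, Mpc1 and Mpc2 stood far above every carrier. Nptn had 406.8 ± 69.6 TPM in WT and 482.0 ± 64.4 in AKO (SD, n = 4 each, limma FDR = 0.831), a level near that of Bsg. Mpc1 had 359.3 ± 63.1 and 348.8 ± 39.3 TPM and Mpc2 190.4 ± 30.1 and 204.7 ± 28.2 TPM. Ldha, which makes lactate from pyruvate, had 874.2 ± 142.3 and 831.4 ± 68.7 TPM, Ldhb 55.5 ± 17.8 and 42.7 ± 13.3, and Ldhd 16.8 ± 4.63 and 15.05 ± 2.22. Hcar1 had 30.1 ± 8.55 and 32.7 ± 4.28 TPM. Each of these genes had overlapping groups.

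The profile across mice of 3 genes is given as the most like that of Slc16a1, by Pearson r of log2(TPM + 1) over the 8 mice among 9303 genes with a mean of at least 3 on that scale. Hadha, a subunit gene of the mitochondrial trifunctional protein of fatty acid oxidation, had r = 0.964, Sycp3, best known from meiotic chromosomes, r = 0.963, and Zbtb21, a zinc finger gene, r = 0.962. Without WT mice 4 and 5, the mice farthest from the median of Slc16a1, r was 0.898, 0.825 and 0.861. In all, 39 genes reached an r of 0.9. Hadha had 164.9, 186.3, 136.4 and 142.6 TPM in WT mice 2, 3, 4 and 5, with the same pair of low mice as Slc16a1, and 163.1, 159.4, 193.0 and 165.1 TPM in AKO mice 3, 8, 9 and 11. Among the members, r with Slc16a1 was 0.718 for Slc16a10, 0.322 for Emb, -0.31 for Bsg and -0.45 for Slc16a7. These values describe the likeness of profiles chosen for it and carry no test.

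The mice also differed in cell type markers. The 8 macrophage markers summed to 3587, 5225, 2229 and 3436 TPM in WT mice 2, 3, 4 and 5 and to 5523, 4475, 6347 and 3607 TPM in AKO mice 3, 8, 9 and 11. WT mouse 3 and AKO mice 9 and 3, the 3 highest in Slc16a10, were also the 3 highest in this sum, and WT mouse 4 was lowest in both. That match was not particular to macrophage markers. The same 3 mice were highest, and WT mouse 4 lowest, in the fibroblast and progenitor sum and in the lipid-associated macrophage sum. WT mice 4 and 5, in which Slc16a1 row 1 held 100% of the gene, had the 2 lowest macrophage sums. AKO mouse 9, with the lowest share of row 1 (16.7%), had the highest. The other mice did not keep that order. AKO mouse 11, with a share of 21.7%, had 3607 TPM, near the 3587 TPM of WT mouse 2, with 46.4%. WT mouse 3, with a share of 49.3%, had 5225 TPM. The mean macrophage sum was 3619 ± 1231 TPM in WT and 4988 ± 1198 TPM in AKO (SD, n = 4 each), with overlap. The 6 fibroblast and progenitor markers summed to 1272 to 2283 TPM in WT and 1621 to 2382 TPM in AKO, with AKO mouse 3 and WT mouse 3 highest, as for Emb. Dcn and Col3a1 made up most of that sum. The progenitor marker Pi16 went the other way in WT mouse 3, where it was lowest, at 16.5 TPM. WT mouse 4, WT mouse 2 and AKO mouse 11 had the 3 lowest Emb values. WT mice 4 and 2 were also the lowest in that sum. For Slc16a7 and the adipocyte sum the order was looser: WT mouse 4 was high in both, and AKO mouse 11 was high in Slc16a7 with 14194 TPM of adipocyte markers, near the middle of the 8 mice. All 8 macrophage, 6 fibroblast and 8 adipocyte markers were above 0. The 4 B cell markers, 2 of which passed the filter on low values, summed to 3.75 to 6.65 TPM in WT and 6.74 to 10.1 TPM in AKO, low levels without overlap. The endothelial sum was 301.2 to 526.6 TPM in WT and 353.8 to 471.4 TPM in AKO. The red blood cell sum was 1520 to 5870 TPM in WT and 1275 to 4380 TPM in AKO. It was highest in WT mouse 4 and then AKO mouse 11, the 2 mice highest in Slc16a7. Epididymal epithelium markers summed to 0.23 to 7.73 TPM in WT and 0.30 to 1.67 TPM in AKO, and none passed the filter. WT mouse 4 was highest in both of these sums. Lipid-associated macrophage, T cell, mesothelial and skeletal muscle markers were also summed, and their groups overlapped. Lpl was the largest part of the lipid-associated macrophage sum and was highest in WT mice 5 and 4. Each other marker of that list was lowest in WT mouse 4. Acta1 made up nearly all of the skeletal muscle sum. These 2 sums are therefore weak measures of the cell types they are named for. The part of cell make-up in the members' values, the row share of Slc16a1 included, was not tested, and in bulk tissue fewer cells of a type and less RNA per cell cannot be told apart.

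**Figure D5:**
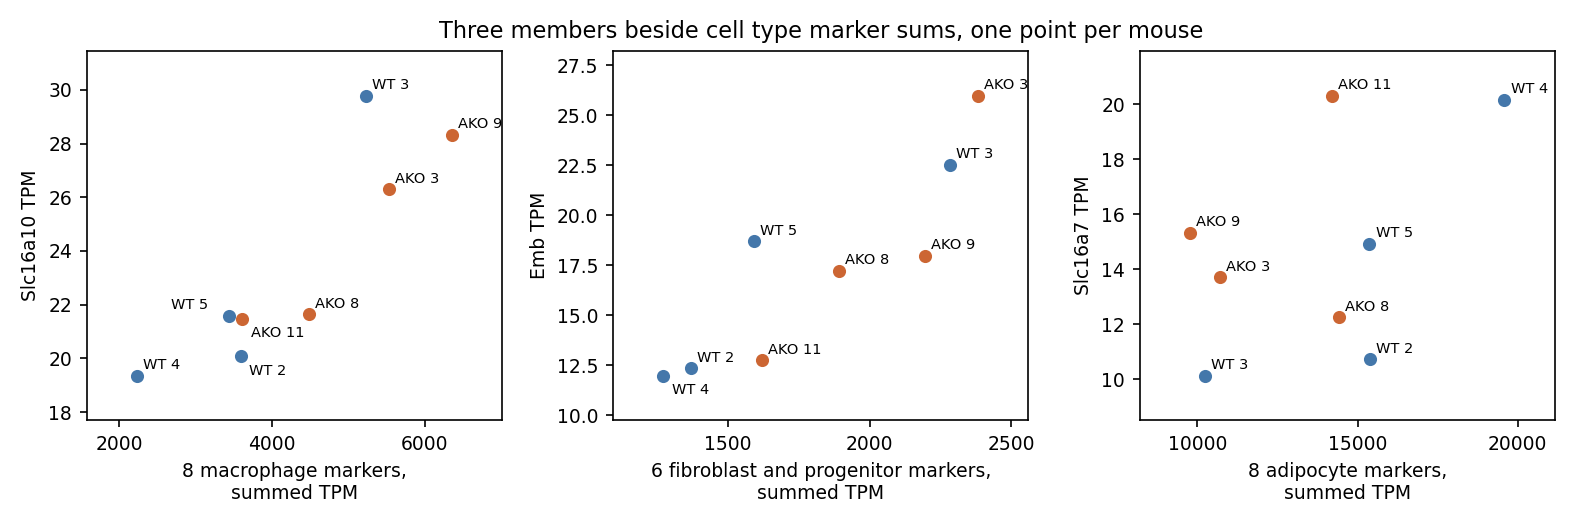
TPM of Slc16a10, Emb and Slc16a7 (vertical axes) against the summed TPM of macrophage, fibroblast and progenitor, and adipocyte markers, 1 point per mouse, WT in blue and AKO in orange. The pairs were chosen after their values were seen, and other marker sums had the same highest mice as Slc16a10 and Slc16a7. WT mouse 4 is lowest for Slc16a10 and Emb and high for Slc16a7.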

How the data were processed

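RNA of 8 libraries, 4 WT and 4 AKO, was analysed from 1 table per library with 152298 rows. The deposited values are TPM per transcript row, scaled by the authors to a fixed total. Per the submitters' processing notes HISAT2, DESeq2 and mm9 were used, in roles and versions the notes do not give. For the quantifier and the annotation: not given in the sources used here. The library kit was Illumina TruSeq RNA, per the labels' protocols. Rows of an identifier were summed, and 401 rows without a gene identifier were left out. Symbols came from the gene name table, and chromosome names, transcript numbers and overlaps from GENCODE M21, a different build, without coordinates. Promoters came from RefSeq (GRCm38.p6).

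limma (version 3.58.1, R 4.3.3) with a mean-variance trend was fitted to log2(TPM + 1) of all genes, and of all rows, with at least 1 TPM in at least 4 libraries, with Benjamini-Hochberg adjustment and an FDR threshold of 0.05. It was checked on simulated data. Single values were compared by two-sided exact permutation over 70 arrangements. No 2 libraries held identical values. All members are named whatever their result, and the wider list, marker lists and alternatives were set down together. The members and lists were chosen with earlier results of these data known. Alternatives tried were the highest row per gene, a robust spread, weights for sample quality, median-ratio scaling, TPM rescaled without mitochondrial genes, no filter, a pseudocount of 0.1, and fits without each mouse or without WT mice 4 and 5. A gene of the wider list is not reported here. Values are given for genes of that list with a mean of at least 1 TPM, and those below it are named without values. The genes most like Slc16a1 are the 3 with the highest r, leaving out Gm and Rik symbols.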

Additional observations from a re-analysis of the deposited data

Results flagged for a closer look

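In 24 groups of 4 values (each member, the rows of Slc16a1 and the share of its row 1, in WT and in AKO) 1 mouse stood apart from the others by Dixon's criterion at the 95% level, near the 1 in 20 that chance gives. It was AKO mouse 8 for Slc16a9, at 3.14 TPM beside 2.16 to 2.31 TPM in the other AKO mice, a gap of 0.847 of the group's range.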

How the results depend on the processing

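No paired analysis was possible because the groups share only the number 3, on different animals. No member passed the threshold under any alternative. Slc16a6 and Slc16a7 kept a positive difference in all 16, from 0.08 to 0.49 and from 0.02 to 0.50. Signs turned for small differences, with no call. Without WT mice 4 and 5, Slc16a1 had -0.11 and Slc16a10 -0.012. Quality weights gave Slc16a3 0.011, the highest row gave Slc16a13 0.23 and Slc16a1 2.24, and median-ratio scaling gave Bsg -0.0018. Leaving out 1 mouse gave -0.16 to 0.073 for Slc16a3, -0.068 to 0.062 for Slc16a9, -0.39 to 0.17 for Slc16a13, -0.023 to 0.054 for Bsg and -0.0021 to 0.33 for Emb. Slc16a1 row 1 stayed negative in all 15 alternatives for rows, from -1.18 to -0.85. The difference in its share was -54.7 to -36.8 percentage points when 1 mouse was left out, and -19.5 without WT mice 4 and 5. The genes called, 4 as reported (3 higher), numbered 1 without AKO mouse 3, 2 without WT mouse 2 or AKO mouse 11, 4 or 5 without any other mouse, 6 (5 higher) with a pseudocount of 0.1, 3 with the highest row per gene, and 0 without WT mice 4 and 5, a fit with 6 mice. The rows called, 7 as reported, numbered 0 to 2 when 1 mouse was left out. They were 2 with a pseudocount of 0.1, 0 with no filter or without WT mice 4 and 5, 4 with quality weights and 3 with a robust spread; the cause was not tested. Each of the 2 scalings gave 3 genes higher and 1 lower. The row with the highest mean moved the mean rank of Slc16a1 from 1.88 to 3.13, row 2 being at 0 in WT mice 4 and 5, and that of Slc16a9 from 6.75 to 5.38. Depth is unknown and limits the low members most.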
